A study of Daphnia sinensis with 8 samples.

Results

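Laminin subunit gamma-3 was followed over the 4 life-history stages of the water flea *D. sinensis*, as the unigene Cluster-5789.8159, which is 1 of the 11114 unigenes listed in the deposited counts. It was picked by its ID from the authors' list of 36 male-biased candidates. That list began with the unigenes most strongly up-regulated in males against any of the female stages in the same libraries, and kept those that were higher in males by qPCR as well. The order of the stages was already known when the gene was singled out. Its levels and fold changes are therefore a description and carry no test. The name is the best protein match in other species, and none of the listed unigenes matched the gene table of the *D. sinensis* assembly (0 IDs), so its position in the genome and its protein sequence are not given here.

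Poly-A RNA of whole animals was sequenced in 8 libraries, 2 for each stage, with totals of 17172891 to 27160267 counts. The M samples held about 60 males aged 2 to 3 weeks, and the SF samples about 50 sexual females of that age, which carried resting eggs. The PF samples held about 50 parthenogenetic females of that age with their first eggs, and the JF samples about 500 juvenile females under 12 h old. All animals descended from laboratory cultures of a population of Lake Chaohu. M, SF and PF came from crowded beakers of 10 mothers, males being raised apart as juveniles, and JF came from mothers kept singly. Age, culture and stage thus cannot be told apart where JF is compared. As only the males were raised apart, rearing and sex cannot be told apart where M is compared with PF or SF. The methods call the males under 12 h old in one place and say in another that they were raised for 2 weeks. *Doublesex2* (Cluster-5789.12340), whose relatives direct male traits in *Daphnia*, stood at 228 and 221 CPM in M and at 3.45 to 5.90 CPM in the 6 libraries of females, which fits the labels of sex. It comes from the same list. Per degree of freedom, the chi-square between the counts of both libraries was 1.89 for M, 173 for SF, 97.4 for PF and 65.2 for JF, where sampling alone gives 1. The male libraries were thus closer to each other than those of any female stage, but not as close as sampling would make them.

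Laminins are secreted proteins of 3 chains, an alpha, a beta and a gamma chain, that join into the sheet-like network of basement membranes beneath epithelia and around muscle, nerve and gonad. Cells hold on to that network through integrins and related receptors. In *Drosophila* a single gamma chain, LanB2, serves all laminins, whereas mammals have several, and in vertebrates basement membrane surrounds the developing gonads of both sexes. The other chains, receptors and collagens of the basement membrane have no unigene ID in the sources used here, so the gene could not be set beside its partners.

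The only sequences that the sources pair with this unigene are the primers that the authors designed for its qPCR. They are shown because they define the stretch of the transcript that identifies the gene, and run 5′ to 3′.
Cluster-5789.8159 forward primer: agaagacttaccatcgcata
Cluster-5789.8159 reverse primer: tccatcgtgaagattgaga
The forward primer has 20 bases with a GC content of 40.0%, and the reverse primer 19 bases with 42.1%. The reverse complement of the reverse primer, tctcaatcttcacgatgga, reads along the same strand as the forward primer. Which strand is the coding one was not checked. No qPCR values are reported here.

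Laminin subunit gamma-3 was highest in males and stepped down over JF and PF to SF. The count of this unigene was 17179 and 14128 in the M libraries, 1863 and 1591 in the SF libraries, 3127 and 2435 in the PF libraries, and 5219 and 7158 in the JF libraries. Scaled to counts per 1000000 (CPM) with edgeR's TMM factors, these are 743 and 745 CPM in M, 86.3 and 75.8 CPM in SF, 127 and 132 CPM in PF, and 273 and 266 CPM in JF. No library of a stage overlapped with one of another stage. The lowest male library stood at 743 CPM and the highest female library, a JF library, at 273 CPM. Among the females, both JF libraries lay above both PF libraries, and both PF libraries above both SF libraries. RNA came from whole pooled animals, in which fewer cells of a type and less RNA per cell cannot be told apart.

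**Figure D1:**
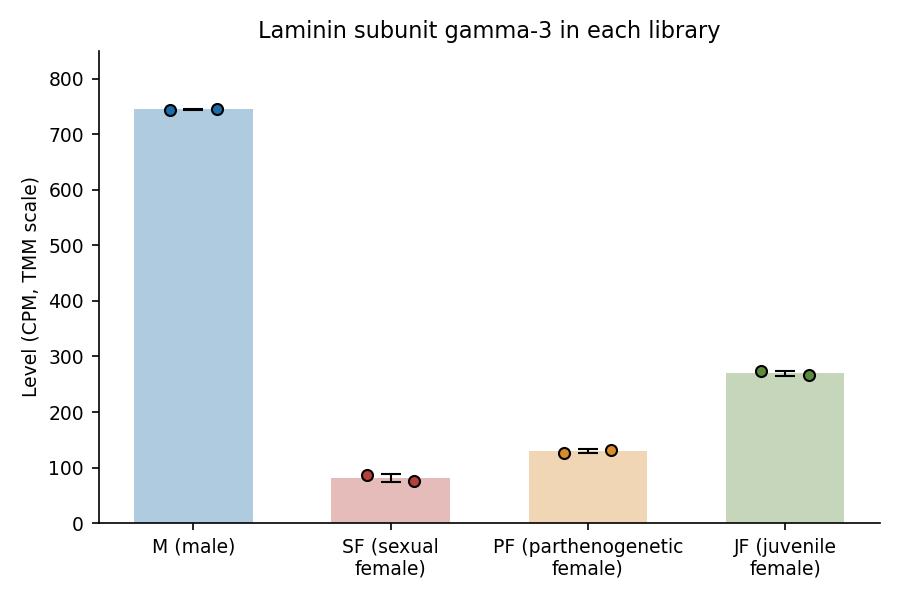
Level of laminin subunit gamma-3 in CPM (TMM scale) by stage. Bars are the mean of 2 libraries, whiskers the SD and points the single libraries. Males average 744 CPM, against 81.1 CPM in SF, 129 CPM in PF and 270 CPM in JF, and no points of different stages overlap.

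The stage means were 744 ± 1.55 CPM in M, 81.1 ± 7.46 CPM in SF, 129 ± 3.29 CPM in PF and 270 ± 4.72 CPM in JF (mean ± SD, n = 2 libraries each). Each step of the order was larger than the spread of the libraries on either side. Between M and JF, the means lay 475 CPM apart, 75.7 times the sum of both SDs. Between JF and PF the difference was 140 CPM, or 17.5 times the sum of the SDs. The step from PF to SF was the smallest, with 48.4 CPM, which is 4.50 times the sum of the SDs. All neighbours in the order thus differed beyond the spread between 2 libraries on the TMM scale, which is a narrow basis for a spread.

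In the fit of all unigenes, the log2 fold change was 3.20 in M vs SF (standard error 0.12), 2.52 in M vs PF (standard error 0.11) and 1.46 in M vs JF (standard error 0.11). The ratios of the means were 9.18, 5.75 and 2.76. The same order among females gave negative values, -1.73 in SF vs JF, -1.06 in PF vs JF and -0.67 in SF vs PF (standard error 0.11 each). The mean of SF was thus 0.300 times that of JF, the mean of PF 0.480 times that of JF, and the mean of SF 0.626 times that of PF. The 3 comparisons with males share the male libraries, so they are not separate pieces of evidence. Over all 10822 unigenes tested, 99.3% had a lower log2 fold change than laminin subunit gamma-3 in M vs SF, 93.4% did in M vs PF, and 90.3% did in M vs JF. Among females, 8.14% had a lower value in SF vs JF, 11.5% in SF vs PF and 22.9% in PF vs JF, so the fall from JF to PF was the least unusual.

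How closely the libraries of a stage matched differed between stages. The higher male library was 1.003 times the lower one, and the counting intervals of both overlapped (732 to 754 and 733 to 758 CPM, exact Poisson, 95%, counting error only). On the TMM scale, only in SF did the libraries lie apart by more than counting, with a ratio of 1.14 and intervals of 82.5 to 90.3 and 72.1 to 79.6 CPM. In PF the ratio was 1.04 and in JF 1.03, again with overlapping intervals, 123 to 132 and 127 to 137 CPM in PF and 266 to 281 and 260 to 273 CPM in JF. The distances depended on the scaling. As a plain share of the library, the gene took 7.17 and 7.23 of every 10000 counts in the M libraries, 0.827 and 0.787 in the SF libraries, 1.25 and 1.42 in the PF libraries, and 2.79 and 2.64 in the JF libraries. On that scale the PF libraries were the ones farthest apart, 1.13-fold, beside 1.06-fold in JF and 1.05-fold in SF. The order of the stages was the same.

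The agreement was also set beside that of other unigenes with a similar number of counts. For this purpose 1261 unigenes were taken whose mean over the 4 stages was within 2-fold of the 306 CPM of laminin subunit gamma-3, between 153 and 612 CPM. The counts are not divided by length, so these unigenes are alike in counting precision and not in transcripts per cell. The log2 distance between the libraries of a stage was below that of laminin subunit gamma-3 for 9.12% of them in M, for 43.7% in SF, for 13.8% in PF and for 11.5% in JF. On the TMM scale the gene thus belonged in M, PF and JF to the unigenes with the closest libraries, and in SF it was near the middle. As plain shares of the library, closer libraries were found for 22.2% of the same unigenes in males, for 16.3% of them in SF, for 35.8% in PF and for 32.7% in JF, so which stages were closest depended on the scaling. The median log2 distance of the 1261 unigenes on the TMM scale was 0.027 for M, 0.23 for SF, 0.20 for PF and 0.16 for JF. The estimated count was not a whole number in both male libraries and in JF replicate 1, as when a counter divides reads between unigenes. How many reads were divided cannot be read from the counts.

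The order M, JF, PF, SF was less frequent among these unigenes than an equal share of the orders, though other orders were rarer. With 4 stages there are 24 possible orders, and 30 of the 1261 unigenes had their means in this one, or 2.38%. It took place 15 among the 24 orders, where equal shares would be 4.17% each. The most frequent order, JF, M, SF, PF, held 177 unigenes (14.0%), and PF, SF, M, JF held 144 (11.4%). Over all unigenes past the filter on low counts the share was 2.74%, close to that at similar level. With the further condition that libraries of neighbouring stages do not overlap, 9 unigenes were counted (0.714%, place 13 among the 24 orders), against 0.656% of all unigenes. Scaled by library size only, this share at similar level was 0.391%. Without SF replicate 1 the shares at similar level were 3.75% and 1.36%, and without PF replicate 1 the share free of overlap was 1.13%. Any of the 24 orders without overlap was found for 477 unigenes of similar level (37.8%) and for 29.6% of all unigenes. These shares describe the libraries. They give no probability for laminin subunit gamma-3, whose order was known beforehand.

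**Figure D2:**
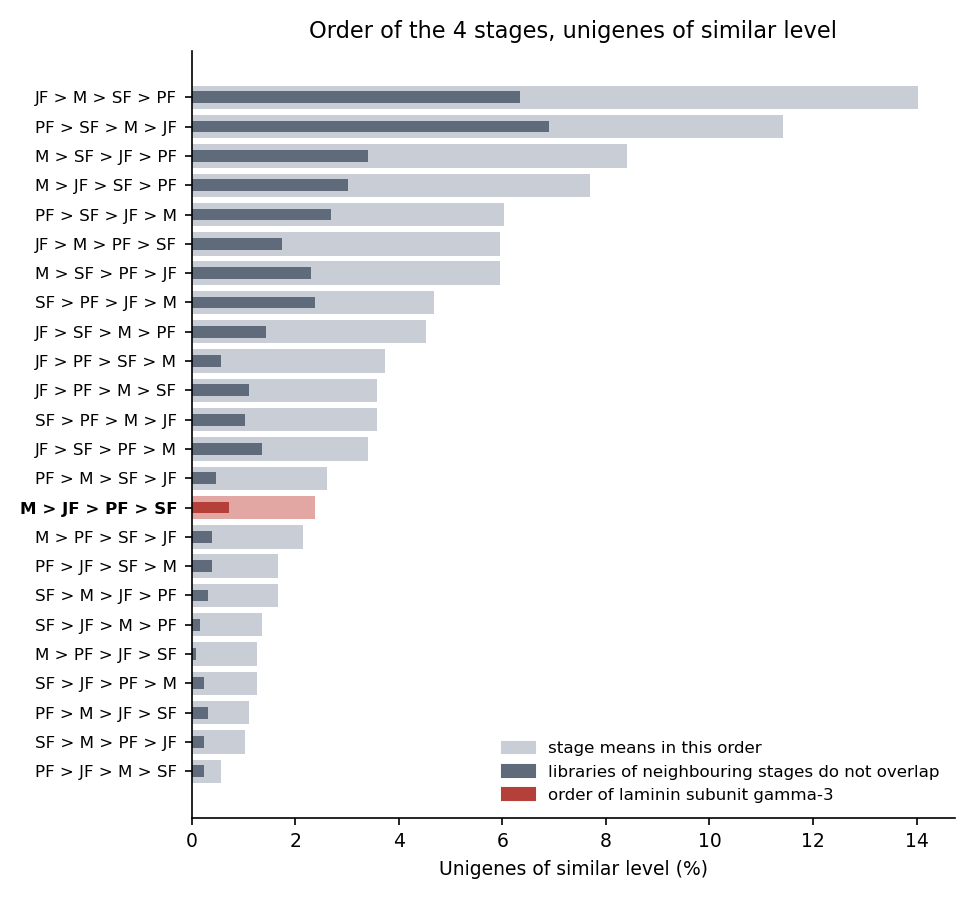
Share of the 1261 unigenes of similar level in each of the 24 orders of the stage means (wide bars) and in that order without overlap between libraries of neighbouring stages (narrow bars). The order of laminin subunit gamma-3, in red, holds 2.38% and 0.714%, against 14.0% for the most frequent order.

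The highest mean lay in males for many of these unigenes, but seldom with the females in this order. Of the unigenes of similar level, 351 (27.8%) had their highest mean in M, as did 20.9% of all unigenes. Of these 351, the females followed in the order JF, PF, SF in 30 unigenes (8.55%). SF, JF, PF was the most frequent female order, with 106 unigenes (30.2%), followed by JF, SF, PF with 97 (27.6%) and SF, PF, JF with 75 (21.4%). The orders PF, SF, JF with 27 (7.69%) and PF, JF, SF with 16 (4.56%) were less frequent than that of laminin subunit gamma-3. The lowest mean lay in SF for 187 of the 1261 unigenes (14.8%) and for 17.1% of all unigenes.

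Both the span from M to SF and the smallest step of the gene exceeded those of the unigenes of similar level in this order. Taken singly, steps of some of these unigenes were larger. They reached 2.46 on the log2 scale from M to JF, against 1.46 for the gene, and 1.85 from JF to PF, against 1.06. The gene was chosen from these libraries for its rise in males, so a wide span from M was favoured by that choice. Between the highest and the lowest mean, M and SF, laminin subunit gamma-3 spanned 3.20 on the log2 scale, and its smallest step was 0.68. The 30 unigenes in the same order had a median span of 0.87 and a median smallest step of 0.11. None of them (0) reached the span and none (0) the smallest step of laminin subunit gamma-3. Without regard to order, 8 of the 1261 unigenes (0.634%) had a ratio of M to SF at least as large. Over all 10821 other unigenes at any level, 295 had the same order, and 14 of these had both a span and a smallest step at least as large, 11 of them without overlap. Graded patterns of this size thus occurred, but at other levels.

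**Figure D3:**
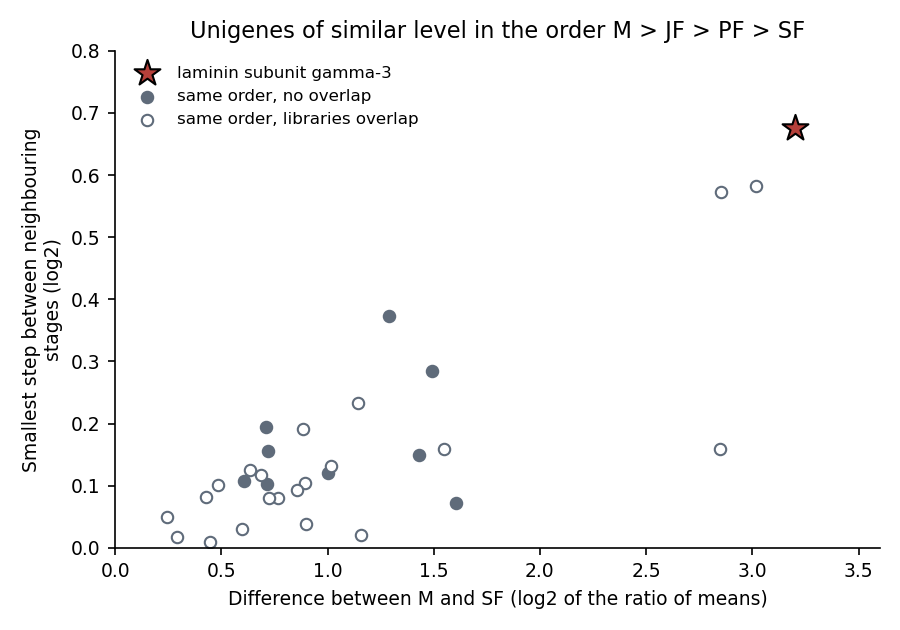
Unigenes of similar level in the order M, JF, PF, SF, by the log2 ratio of M to SF (horizontal) and the smallest log2 step between neighbouring stages (vertical). Laminin subunit gamma-3 (star) lies at 3.20 and 0.68, above and to the right of all 30 others. Filled points are the 9 unigenes without overlap and open points those with overlap.

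Among the 9 unigenes of the same order and no overlap, Cluster-5789.6220 had the largest smallest step (0.37). It had 263 ± 3.70 CPM in M, 107 ± 8.21 CPM in SF, 148 ± 13.5 CPM in PF and 191 ± 22.4 CPM in JF (n = 2 libraries each). Cluster-5789.3557 followed with a smallest step of 0.28 and a span of 1.49. Cluster-5789.9457, Cluster-5789.2619 and Cluster-5789.2831 had smallest steps of 0.19, 0.16 and 0.15. Chosen after their values were seen, 2 unigenes whose libraries overlapped came closer to laminin subunit gamma-3. Cluster-5789.6747 had a span of 2.85 and a smallest step of 0.57, with mean levels of 630 CPM in M, 87.3 CPM in SF, 130 CPM in PF and 215 CPM in JF. Cluster-5789.6232 had a span of 3.02 and a smallest step of 0.58. None of these unigenes carries a name in the sources used here.

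The unigenes most like laminin subunit gamma-3 in pattern were sought by the Euclidean distance between log2 CPM values over the 8 libraries, after each unigene was centred on its own mean. The median distance of all unigenes was 3.84. The 10 nearest lay between 0.653 and 1.09, with Pearson's r of 0.949 to 0.994 over the 8 libraries, which share their scaling. The nearest was Cluster-5789.6233, with 65.9 and 71.3 CPM in M, 12.1 and 8.86 CPM in SF, 17.2 and 18.0 CPM in PF, and 29.3 and 30.1 CPM in JF. Its libraries did not overlap between stages and showed the same order at a lower count. Cluster-5789.5617 came next, with 151 ± 2.58 CPM in M, 21.3 ± 0.348 CPM in SF, 35.3 ± 2.34 CPM in PF and 87.5 ± 2.81 CPM in JF. Cluster-5789.9219 had the widest span of the 10, with a log2 ratio of M to SF of 3.59. It had 187 ± 2.17 CPM in M and 15.6 ± 3.29 CPM in SF.

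Of the 10 nearest unigenes, 8 had the same order of stage means, and 7 had it without overlap, against 2.74% and 0.656% of all unigenes. They were chosen for their nearness over these same libraries, so the shared order follows largely from that choice. Cluster-5789.328 and Cluster-5789.1795 had their lowest mean in PF. The others were Cluster-7378.0, Cluster-5789.681, Cluster-5789.1493, Cluster-5789.4849 and Cluster-5789.1713. All 10 had a lower level than laminin subunit gamma-3, from 2.45 to 84.2 CPM over the stages, and none (0) was of similar level. Low counts make patterns less certain, and for the lowest of them, Cluster-5789.681, the SF libraries had 0.927 and 0.762 CPM. Without SF replicate 2 or PF replicate 2, 5 of the 10 stayed among the nearest, and without JF replicate 2, 6 did. None of the 10 is on the authors' list, and none has a name in the sources used here.

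**Figure D4:**
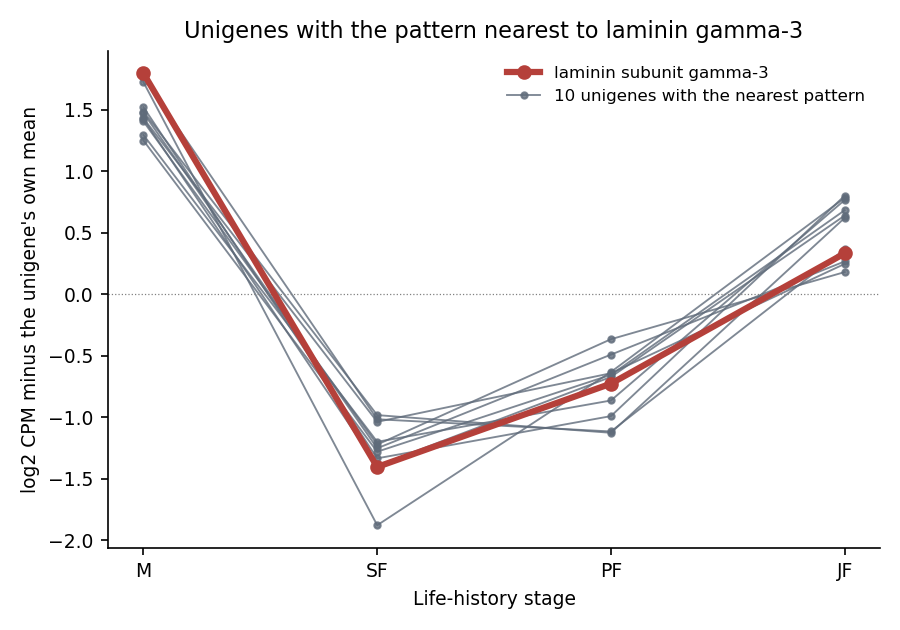
Mean log2 CPM of each stage minus the unigene's own mean over the 8 libraries, for laminin subunit gamma-3 (thick line) and the 10 unigenes with the nearest pattern (thin lines). All are highest in M, and 8 of the 10 have the order M, JF, PF, SF, which follows largely from their choice by nearness over these libraries. Lines join the stages of a unigene and stand for no time course.

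Of the 35 other candidates on the authors' list, 27 could be read from the deposited counts, and 8 were not analysed here. As the list was drawn from these libraries, its direction in males is fixed by that choice, and 25 of the 27 had their highest mean in M. The order of the female stages differed within the list. It was M, SF, JF, PF in 9 unigenes (5.76% of all unigenes) and M, SF, PF, JF in 7 (4.26% of all unigenes). The order of laminin subunit gamma-3 was shared by 6 of the 27 (2.74% of all unigenes), or by 3 without PF replicate 1. These were *Doublesex2*, the trypsin-like isoform X1 (Cluster-5789.7668) and the uncharacterized Cluster-5789.6049, Cluster-5789.9163, Cluster-5789.9162 and Cluster-5789.697. Without overlap between neighbouring stages the order was found in 2 of them, Cluster-5789.9163 and Cluster-5789.9162, where 0.656% of all unigenes had it. As the list was chosen for high levels in males, the unigenes highest in M are a nearer background than all unigenes. Of the 2265 unigenes highest in M, 296 had this order, and 71 had it without overlap. The orders M, SF, JF, PF and M, SF, PF, JF held 623 and 461 of the 2265.

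By their names, the other known genes belong to chitin turnover, the cleavage of proteins and sex differentiation. Their roles in this species were not tested. Chitin synthase 2 (Cluster-5789.11830), named as an enzyme that makes chitin, had 520 ± 0.469 CPM in M, 264 ± 176 CPM in SF, 7.05 ± 0.365 CPM in PF and 62.6 ± 5.95 CPM in JF (n = 2 libraries each). Chitinase 5 (Cluster-5789.5191) and chitinase 8 (Cluster-5789.7417), enzymes that break chitin down, had the same order with PF lowest. PF stood at 14.5 ± 2.30 CPM for chitinase 5 and 10.2 ± 2.06 CPM for chitinase 8. For chitinase 5 the SF libraries, with 538 and 96.3 CPM, lay on both sides of the JF libraries, with 207 and 173 CPM, so that its place above JF rests on SF replicate 1. The order M, SF, JF, PF was also that of Cluster-5789.2039, a serine protease, and of Cluster-5789.11655, named trypsin alpha-like. In these 5 genes the mean of SF was the second highest, in all but chitinase 5 with both SF libraries above both JF libraries, whereas in laminin subunit gamma-3 it was the lowest.

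The remaining trypsins varied. Putative trypsin-7 (Cluster-5789.3677) was lowest in PF, with 9.91 ± 4.38 CPM, against 65.5 ± 3.34 CPM in JF. The trypsin-7-like gene (Cluster-5789.9553) had its lowest mean in JF, with 2.73 ± 0.0868 CPM. Its SF libraries stood at 7.41 and 0.810 CPM and its PF libraries at 5.49 and 1.30 CPM, on both sides of JF, so the female stages were not separated. The partial trypsin-7 (Cluster-5789.9554) was lowest in SF, with 6.29 ± 5.06 CPM, a level within the spread of PF and JF. Trypsin-like isoform X1 was the known gene nearest in pattern to laminin subunit gamma-3, at place 76 by distance. It had 198 ± 8.01 CPM in M, 15.2 ± 2.10 CPM in SF, 17.6 ± 9.37 CPM in PF and 71.6 ± 8.65 CPM in JF, so that SF and PF overlapped. Trypsins form a gene family between whose members reads could have been split. For *Doublesex2* the 3 female stages lay at 3.97 ± 0.0889 CPM in SF, 4.68 ± 1.73 CPM in PF and 4.85 ± 1.13 CPM in JF. They were not separated by their libraries, so its order is that of laminin subunit gamma-3 in name only.

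**Figure D5:**
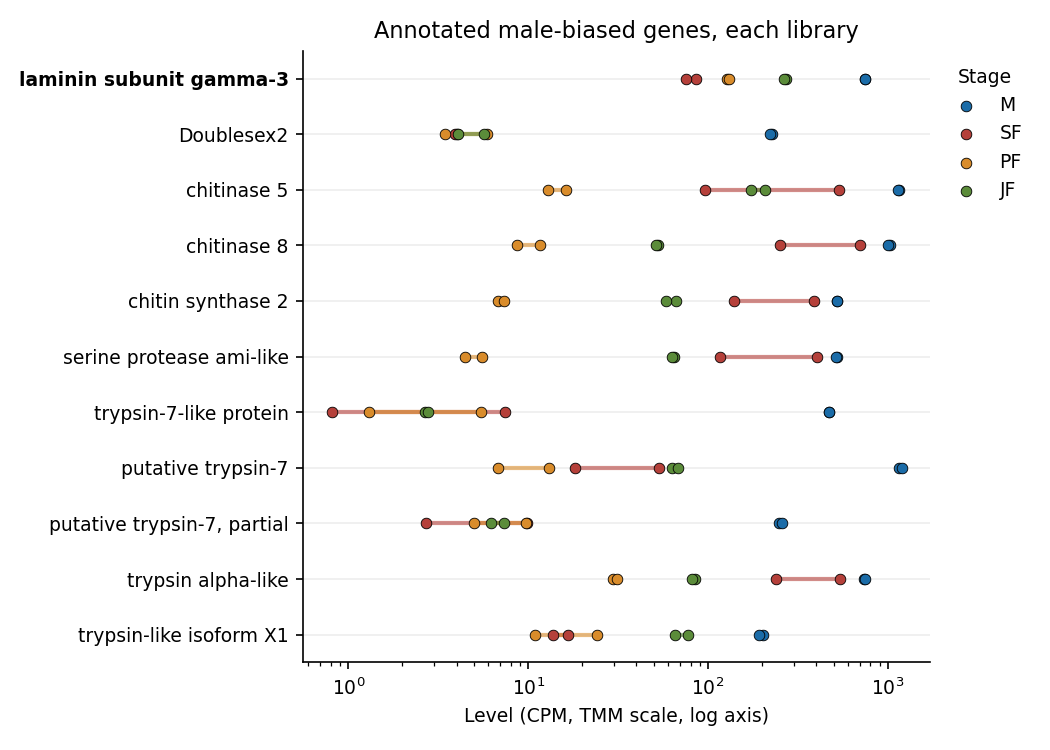
Level of laminin subunit gamma-3 and the 10 other known genes of the authors' list in each library, in CPM on a log axis, with lines joining both libraries of a stage. Levels can be compared within a gene and not between genes, since they are not divided by length. Laminin subunit gamma-3 shows 4 separate pairs, with M at 743 and 745 CPM and SF, at 86.3 and 75.8 CPM, lowest.

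Between female stages the list was tested with edgeR's quasi-likelihood test over all unigenes (Benjamini-Hochberg adjustment, calls at an adjusted p below 0.05 with more than a 2-fold change). The list is not independent of these comparisons, because a low JF, PF or SF level helped a unigene on to it. In SF vs PF, 15 of the 27 were up-regulated and 2 down-regulated, where 9.98% and 4.84% of all unigenes were called. The median log2 fold change of the 27 was 1.85, beside 0.02 for all unigenes. Laminin subunit gamma-3 had -0.67, and only the down-regulated pair, Cluster-5789.9163 with -1.37 and Cluster-5789.9162 with -2.35, had a lower value. The down-regulated count was 1 without SF replicate 1, PF replicate 1 or either M library. In PF vs JF, 4 (2 without either JF library) were up-regulated and 12 down-regulated (17.2% and 21.6% of all unigenes), with a median of -0.21, beside -0.08 for all unigenes. In SF vs JF, 15 were up-regulated and 4 down-regulated (19% and 18.6% of all unigenes), with a median of 2.02, beside 0.08 for all unigenes. Laminin subunit gamma-3 had -1.73 there, and 4 of the 27 had a lower value.

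The libraries of laminin subunit gamma-3 were also closer than those of most of this list. On the TMM scale its SF libraries differed 1.14-fold, where the median of the 27 others was 1.91-fold and that of the 10 known genes 2.85-fold. In PF it differed 1.04-fold, against a median of 1.37-fold for the 27 and 1.52-fold for the 10 known genes. As plain shares of the library its PF libraries differed 1.13-fold, against a median of 1.42-fold for the 27. SF replicate 1 was the higher library for laminin subunit gamma-3, as for chitin synthase 2. Of the 27, smaller ratios than that of laminin subunit gamma-3 were found on the TMM scale for 3 unigenes in M, for 5 in SF, for 1 in PF and for 3 in JF, and as plain shares for 7 unigenes in males, 3 in SF, 7 in PF and 6 in JF.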

How the data were processed

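The members and lists were chosen with earlier results of these data known. The authors cleaned paired-end poly-A reads, used Trinity to assemble unigenes, and deposited 1 estimated count for each unigene in a library, not scaled. The counting program was not given in the sources used here. Counts were rounded and fitted with edgeR 4.0.16 (limma 3.58.1, R 4.3.3), with TMM scaling, robust estimation, stage as the only term and edgeR's filter on low counts, which kept 10822 unigenes and removed 292. The fit had 4 residual degrees of freedom. Standard errors are the log2 fold change divided by the square root of F. For distances, log2 CPM had a prior count of 2.

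The script was tested on simulated data. Alternatives were DESeq2 1.42.0, other scalings, filters, windows of level and measures of likeness, a replicate block and each library left out. Named unigenes were laminin subunit gamma-3, the 10 nearest in pattern, the 5 of similar level and the same order, without overlap, whose smallest steps were the largest, the known genes of the authors' list and those of that list in the same order. Another 2 unigenes of similar level were named outside this rule, after their values were seen. Nothing in the sources says that replicates came from separate cultures, so their spread may be technical.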

Additional observations from a re-analysis of the deposited data

How the results depend on the processing

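Laminin subunit gamma-3 kept the order M, JF, PF, SF without overlap under all 3 scalings. It did so with each library left out as well. As all 8 libraries were free of overlap, leaving 1 out could change this only through the scaling. None of its log2 fold changes changed sign under any alternative run. In M vs JF its log2 fold change was 1.57 with DESeq2 size factors and with DESeq2 on all 8 libraries, 1.41 with library size only, 1.61 with a filter of 10 CPM in 2 libraries, and 1.60 on the 4 libraries compared. In M vs PF it was 2.60 with DESeq2 size factors and with DESeq2, 2.43 with library size only, and 2.57 on the 4 libraries. With the stricter filter, SF vs JF gave -1.57 and PF vs JF -0.91, and on the 4 libraries PF vs JF gave -0.95. With each library left out, the values were 1.45 to 1.58 in M vs JF, 2.52 to 2.57 in M vs PF, 3.15 to 3.29 in M vs SF, -1.75 to -1.57 in SF vs JF, -1.09 to -0.99 in PF vs JF and -0.72 to -0.58 in SF vs PF. Over all unigenes, the differences between replicates 1 and 2 correlated little between stages, with r between -0.03 and 0.12. With 1 such difference a stage, this cannot decide whether libraries of the same replicate number were paired. With the replicate number as a block the log2 fold changes were 1.46 against JF, 2.52 against PF and 3.20 against SF in males, and -1.74, -1.06 and -0.68 in SF vs JF, PF vs JF and SF vs PF.

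The share of unigenes of similar level in the same order was 2.1% to 3.75% with each library left out, the highest without SF replicate 1. Without overlap it was 0.391% with library size only and 0.711% to 1.36% with each library left out, where the highest was again without SF replicate 1 and that without PF replicate 1 was 1.13%. A stage with 1 library overlaps less easily. The 10 nearest unigenes depended on the measure of likeness. Pearson's correlation kept 3 of them, the distance over the 4 stage means kept 4, and leaving out a library kept 5 to 9. Of the 27 other listed candidates, 3 to 6 had the same order with each library left out, the 3 without PF replicate 1, and 24 to 26 were highest in M. The number of DEGs in SF vs PF was 1604 and fell to 709 on the 4 libraries compared. In SF vs PF, 1 of the other listed candidates was down-regulated on these 4 libraries and with the replicate block, where the full fit called 2. The alternatives for these calls on the list, and the distances between libraries as plain shares, were added after the data had been seen. The causes were not tested. The counts of the gene, 1591 at the lowest, leave little room for sampling error, and the spread rests on 2 libraries a stage.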
